A study of Mus musculus with 28 samples.

Results

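The genes described here encode the proteins of the mitochondrial ribosome whose mouse symbols are Mrpl or Mrps followed by a number. Taking every row of the count table whose symbol has that form gave 77 of 39152 gene symbols, 48 of them named for the large subunit (Mrpl) and 29 for the small subunit (Mrps). The rule used names only and no measured value. RNA sequencing had been run on 28 ventricle pieces of 16 mice. Of these pieces 16 were LV (left ventricle) and 12 RV (right ventricle), and 12 animals gave both. The Pkp2-cKO mice carry Pkp2 fl/fl alleles and the transgene αMyHC-Cre-ER(T2), in which tamoxifen switches on a Cre that the α-myosin heavy chain promoter restricts to cardiomyocytes, so Pkp2, a desmosome gene, is deleted there and other heart cells keep it. The cKO group received the HBSS vehicle, and the 3E13 and 6E13 groups are cKO mice that received TN-401, an AAV9 vector carrying human PKP2 under a cardiac troponin T promoter, 1 week before tamoxifen. The group names give the dose in vg/kg, the vector genomes injected for each kg of mouse. WT mice were Cre-negative littermates given HBSS, so the Cre itself differs between WT and the other groups as well. LV libraries came from 5 WT, 4 cKO, 4 3E13 and 3 6E13 mice, and RV libraries from 3 WT, 4 cKO, 2 3E13 and 3 6E13 mice. The study's methods give the age of its mice only as a range of several months over all of its experiments, and the age of single animals was not used here. The title of the series places the study at about 10 weeks. The paper gives a shared collection time after tamoxifen for the mice of this experiment, and the labels give none for each group. In other experiments of the paper, vehicle-treated cKO mice died or reached the humane endpoint sooner. When each cKO heart was collected was not checked here.

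Mitochondria keep their own ribosomes, which translate the few messenger RNAs of the mitochondrial genome into core subunits of the respiratory chain and of ATP synthase. The ribosomal RNAs come from that genome, whereas every protein of the ribosome is encoded in the nucleus, made in the cytosol and imported. The small subunit holds the decoding site, and the large subunit joins the amino acids and feeds the new chain to the inner membrane. Cardiomyocytes are dense in mitochondria, and inherited defects in several of these proteins cause cardiomyopathy in humans.

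The libraries held 19364764 to 39381176 expected counts, of which the members took 0.105% to 0.165% (20278 to 62041 counts per library). Mouse Pkp2 had a mean of 112 ± 6.90 CPM (SD, n = 5) in WT LV and 42.8 ± 10.7 (n = 4) in cKO LV, and 115 ± 6.00 (n = 3) against 34.4 ± 4.53 (n = 4) in RV. CPM here are counts scaled by the TMM-adjusted library size. The human PKP2 transgene was at 0 in every WT and cKO library, which allows up to 3 counts in each. It lay between 167 and 535 CPM in treated libraries. The transcripts of the mitochondrial genome took 35.4 ± 1.71% of counts in WT LV and 23.7 ± 3.94% in cKO LV, and 38.2 ± 2.14% against 19.4 ± 3.42% in RV. The labels name both a protocol for polyadenylated RNA and a kit that removes ribosomal RNA, so which RNA these shares are of is not settled. The cardiomyocyte markers were present in every library, and the summed level of 10 of them ran from 103344 to 113480 CPM in WT LV, from 34885 to 84435 in cKO LV, from 98939 to 114129 in WT RV and from 34864 to 69871 in cKO RV. In bulk tissue, fewer cells of a type and less RNA per cell cannot be told apart. Of the cKO RV pieces, those of animals 180 and 257 held 87.9 and 47.3 CPM of Myl7, an atrial myosin light chain that no other library had above 2.19 CPM.

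Promoter sequence was looked at because these genes are dispersed, on 17 chromosomes with at most 10 on any one (chromosome 11), and most of them fell in cKO hearts. NRF1 and the ETS family member GABPA are transcription factors known for binding promoters of nuclear genes for mitochondrial proteins. RefSeq windows of 300 bases (250 before to 50 after each start, GRCm38.p6) were found for 68 members, 74 windows in all. Both strands were searched for GCGCATGC (NRF1), CCGGAAG (ETS), AAGATGGCG (YY1) and TCAAGGTCA (ERR, the estrogen-related receptors). The closest background was the 21864 windows of genes in the table. The ETS letters stood in 25 of the 74 member windows (33.8%) against 11.1% of those and 8.86% of all 32851 windows, the NRF1 letters in 8 (10.8%) against 3.46% and 2.71%, the YY1 letters in 8 (10.8%) against 1.77% and 1.40%, and the ERR letters in 0 against 0.316% and 0.423%. By subunit, 29.8% of the 47 large subunit windows and 40.7% of the 27 small subunit windows held the ETS letters, and 14.9% and 3.70% held the NRF1 letters. The member windows were 59.0% G or C against 56.1% for genes in the table and 53.8% over all windows, and the part of base composition in these shares was not tested.

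The 7 stretches below are the 150 bases before the start of members picked by hand. All of these members other than Mrpl32 are described later. The stretches run 5′ to 3′ on the gene's strand, with matches on either strand in capitals. Mrpl32 and Mrpl39 carry the NRF1 letters, which overlap their own reverse complement in both genes. Mrpl3, Mrps22 and Mrpl52 carry the ETS letters, and Mrps11 the YY1 letters. Mrpl46 and Mrps11, one gene of each subunit, lie head to head, so that the last bases of one stretch are the reverse complement of the last bases of the other.
Mrpl32: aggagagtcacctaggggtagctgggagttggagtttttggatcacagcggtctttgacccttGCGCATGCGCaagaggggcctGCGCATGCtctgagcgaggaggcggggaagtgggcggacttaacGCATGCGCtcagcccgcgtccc
Mrpl39: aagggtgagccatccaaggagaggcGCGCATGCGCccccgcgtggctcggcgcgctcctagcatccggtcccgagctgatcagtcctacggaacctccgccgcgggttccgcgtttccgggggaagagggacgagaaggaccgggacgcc
Mrpl3: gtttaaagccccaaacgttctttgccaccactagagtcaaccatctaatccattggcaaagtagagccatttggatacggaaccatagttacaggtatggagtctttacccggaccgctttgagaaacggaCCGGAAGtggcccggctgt
Mrps22: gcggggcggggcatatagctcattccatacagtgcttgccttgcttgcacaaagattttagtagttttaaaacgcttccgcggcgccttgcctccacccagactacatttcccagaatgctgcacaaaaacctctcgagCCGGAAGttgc
Mrpl52: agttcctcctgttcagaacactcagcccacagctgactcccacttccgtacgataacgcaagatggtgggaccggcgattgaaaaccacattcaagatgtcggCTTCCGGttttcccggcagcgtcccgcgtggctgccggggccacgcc
Mrpl46: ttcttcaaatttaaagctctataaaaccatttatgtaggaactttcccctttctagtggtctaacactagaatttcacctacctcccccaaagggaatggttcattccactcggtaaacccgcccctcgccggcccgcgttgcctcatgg
Mrps11: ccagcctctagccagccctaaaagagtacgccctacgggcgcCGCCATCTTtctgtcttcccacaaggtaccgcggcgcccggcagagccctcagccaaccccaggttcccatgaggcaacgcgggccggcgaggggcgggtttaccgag

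The positions of these stretches are Mrpl32 chr13:14613038-14613187 (minus strand), Mrpl39 chr16:84735245-84735394 (minus strand), Mrpl3 chr9:105053118-105053267 (plus strand), Mrps22 chr9:98601680-98601829 (minus strand), Mrpl52 chr14:54426759-54426908 (plus strand), Mrpl46 chr7:78783090-78783239 (minus strand) and Mrps11 chr7:78782981-78783130 (plus strand), all in GRCm38.p6. Head-to-head starts were frequent among the members. In the GRCm39 annotation 29 of 77 (37.7%) had the start of a protein-coding gene on the opposite strand within 1000 bases, against 10.9% of the 18030 protein-coding genes in the table, with 43.8% of large and 27.6% of small subunit members. The partner of Mrpl46 is Mrps11 (412 bases), that of Mrps12 is Sars2 (288 bases), the mitochondrial seryl-tRNA synthetase, and that of Mrpl36 is Ndufs6 (56 bases), a complex I subunit. In this annotation Mrps11 starts at chr7:78432867 (plus strand), inside Mrpl46, which starts at chr7:78433279 (minus strand). The RefSeq starts behind the stretches above are other ones, so 412 bases is not the spacing of those stretches. An exon of another gene overlapped 59 of the 77 members, on the opposite strand for 56 and on the same strand for 8, Mrps24 among them. These overlaps come from a later GENCODE release than the one the paper gives for counting. Some of the overlapping genes may thus not have been counted. The library kit keeps strand. Whether the counting used it is not given in the sources used here, so reads of opposite-strand pairs may be shared. Strand cannot part the reads of same-strand pairs. The members with an overlap had a median change in cKO LV of -0.62 on the log2 scale against -0.63 in those without.

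Levels per transcript length were compared in WT LV. TPM, which divide by transcript length, had a median of 15.6 over the 48 large subunit members and 14.4 over the 29 small subunit members. Mrpl30 was highest (78.6 ± 7.37 TPM, SD, n = 5), followed by Mrps36 (61.9 ± 5.79) and Mrpl51 (49.6 ± 4.96). Mrps36, despite its name, is best known as a subunit of the 2-oxoglutarate dehydrogenase complex. The lowest were Mrpl42 (0.335 ± 0.632), Mrpl11 (0.877 ± 0.303) and Mrpl57 (2.29 ± 0.300). Mrpl42 was at 0 counts in many libraries and never above 0.991 CPM, and as the only member it did not pass the filter on low counts, so 76 members were tested in every comparison. Between WT animals the levels varied less in LV than in RV. The median coefficient of variation was 9.16% in LV and 16.5% in RV.

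To ask what loss of Pkp2 changed, cKO was compared with WT in each ventricle. In LV, 58 of the 76 tested members fell, 36 of 47 in the large and 22 of 29 in the small subunit, and 0 rose (edgeR's quasi-likelihood test, adjusted p under 0.05 over all genes). Of all 16410 genes, 16.1% were called lower and 19.7% higher. DESeq2 called 59 members lower and 0 higher, and neither member with a value above 0 had an unadjusted p under 0.05. The median log2 change was -0.66 for large and -0.56 for small subunit members, against 0.05 over all genes. In RV, 71 of 76 fell, 44 large and 27 small, and 0 rose, where 17.6% of 17307 genes were called lower and 19.8% higher. The RV medians were -0.95 and -0.83, against 0.06 over all genes. Every cKO library lay below every WT library for 56 of 76 members in LV (14.4% of all genes) and for 67 of 76 in RV (19.1%). Without the cKO RV pieces of animals 180 and 257, which held most Myl7, 70 members were called lower in RV.

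The directions are relative to the typical gene. TMM scaling holds the middle of all genes near 0, and plain TPM do not. On log2(TPM + 1) the median over all genes was 0.37 in LV and 0.54 in RV, and that over the members was -0.07 and -0.04, so that they stood at -0.44 and -0.58 relative to it, while the small subunit alone had an RV median just above 0. On that scale 5 members were called higher and 7 lower in LV, and 7 higher and 8 lower in RV. With the mitochondrial genome left out of TPM and the rest rescaled, the members' medians were -0.25 and -0.39, with 1 higher and 21 lower in LV and 0 higher and 33 lower in RV.

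**Figure D1:**
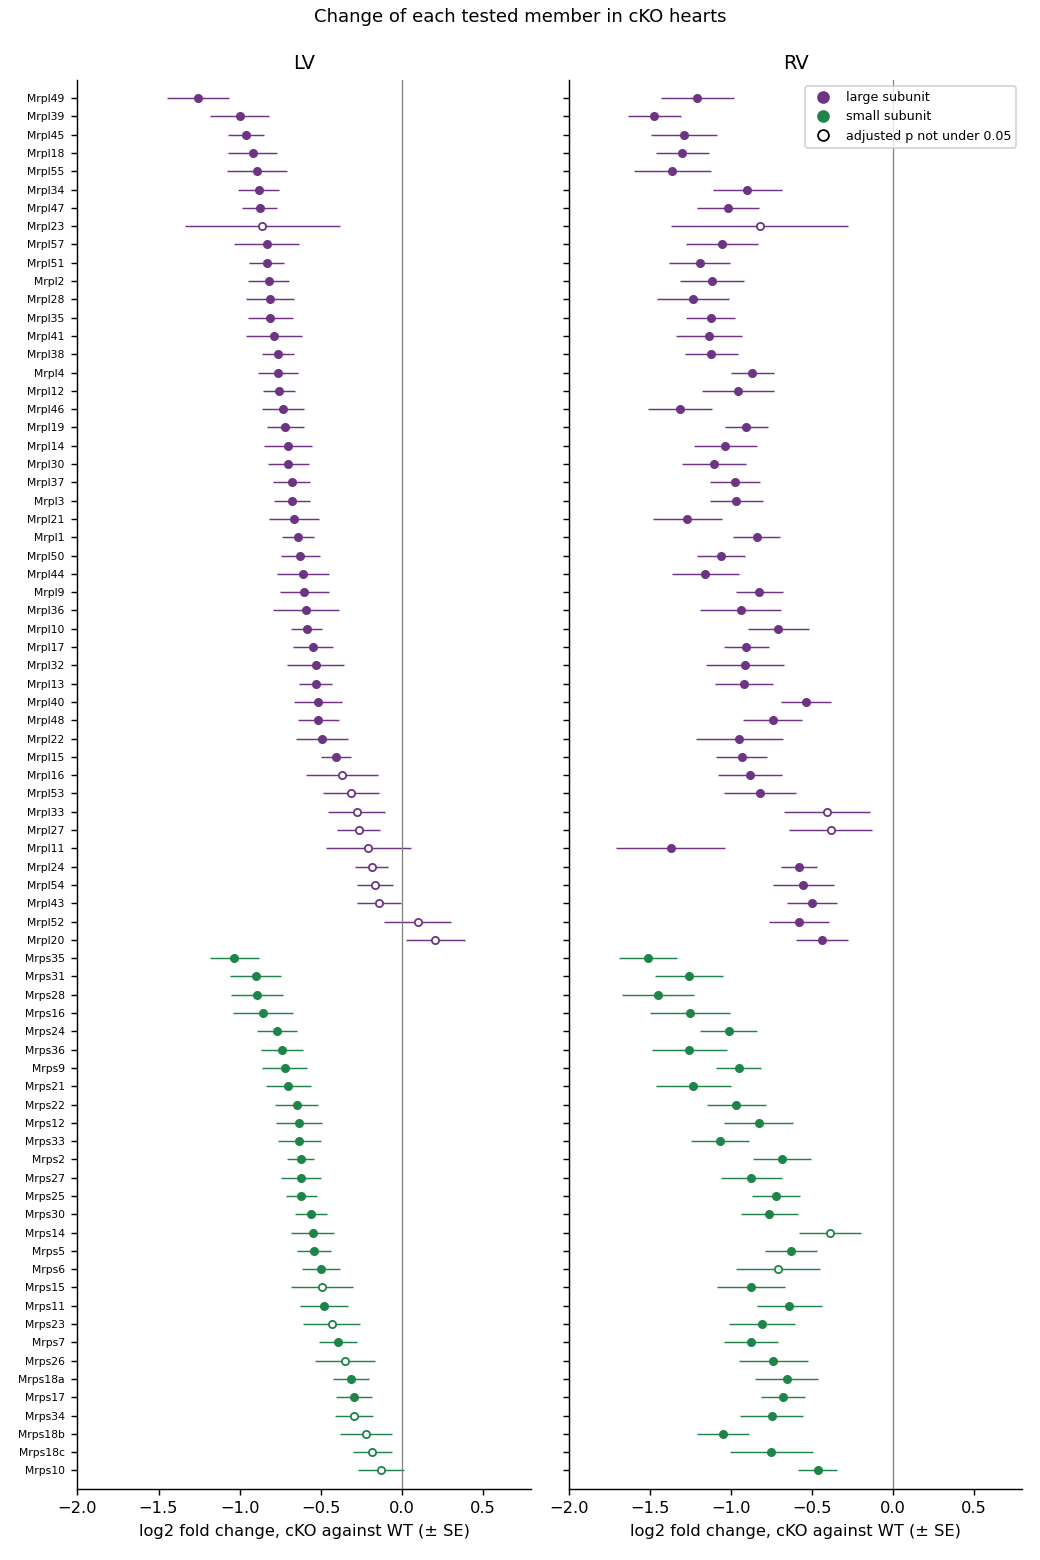
Log2 fold change of cKO against WT (x axis, with its SE) for each of the 76 tested members (y axis), large subunit in purple and small subunit in green, ordered by the LV value, with separate panels for LV and RV. Filled points passed the test, and all of those lie left of 0 (TMM scale; on plain TPM the members' medians were -0.07 in LV and -0.04 in RV).

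Among large subunit members, Mrpl49 fell most in LV. It had 13.9, 15.9, 18.5, 18.6 and 18.9 CPM in WT LV and 4.31, 7.17, 7.92 and 9.35 in cKO LV, a log2 change of -1.26 ± 0.19 (SE, adjusted p = 0.000205 by edgeR's quasi-likelihood test). The groups did not overlap. In RV its change was -1.21 ± 0.23. Mrpl49 starts 3 bases from Fau, a gene on the other strand for a cytosolic ribosomal protein fused to a ubiquitin-like protein, and shares exon sequence with Syvn1 (chr19:6103652-6107871, minus strand, GRCm39).

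Mrpl39, a large subunit protein without a bacterial counterpart, had 28.1, 32.2, 34.7, 36.3 and 36.4 CPM in WT LV against 10.1, 16.8, 17.1 and 23.1 in cKO LV (adjusted p = 0.000678, edgeR), a mean of 16.8 against 33.5 CPM. In RV it had 35.2, 35.6 and 43.9 CPM in WT and 10.2, 14.1, 15.3 and 15.6 in cKO, the largest fall of the large subunit there (-1.47 ± 0.16, adjusted p = 6.06e-05, edgeR). Neither ventricle showed any overlap. Mrpl45, which helps to anchor the ribosome to the inner membrane, changed by -0.96 ± 0.11 in LV and -1.29 ± 0.21 in RV. Mrpl18, of the central protuberance, changed by -0.92 ± 0.15 and -1.30 ± 0.16, and Mrpl55 by -0.89 ± 0.18 and -1.36 ± 0.24. Mrpl46, one of the head-to-head pair, changed by -0.73 ± 0.13 in LV and -1.31 ± 0.20 in RV. Its partner Mrps11 changed by -0.48 ± 0.15 and -0.64 ± 0.20.

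In the small subunit, Mrps35, which has no bacterial counterpart, led in both ventricles. It had 40.4, 40.7, 42.5, 44.8 and 45.8 CPM in WT LV and 13.2, 19.5, 24.6 and 26.5 in cKO LV (-1.03 ± 0.15, adjusted p = 0.00014, edgeR). In RV it had 40.9, 51.5 and 58.6 CPM in WT and 12.3, 19.0, 19.4 and 19.9 in cKO (-1.51 ± 0.18). The WT and cKO libraries were apart in both. Mrps31 changed by -0.90 ± 0.16 in LV and -1.26 ± 0.21 in RV, Mrps28 by -0.89 ± 0.16 and -1.45 ± 0.22, and Mrps16, mutated in a rare human mitochondrial disease, by -0.86 ± 0.19 and -1.25 ± 0.25. Mrps24 changed by -0.77 ± 0.12 and -1.01 ± 0.18. Mrps36 changed by -0.74 ± 0.13 and -1.26 ± 0.23, and Mrps21 by -0.70 ± 0.14 and -1.23 ± 0.23.

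Members with a known role or disease link followed whatever their values. The stalk of the large subunit recruits translation factors. Its protein Mrpl12 had 60.0, 61.1, 68.8, 68.9 and 70.2 CPM in WT LV and 32.0, 38.7, 41.6 and 43.5 in cKO LV (-0.76 ± 0.10), with no overlap, and changed by -0.95 ± 0.22 in RV. Mrpl10, on which Mrpl12 sits, changed by -0.59 ± 0.09 and -0.71 ± 0.19. Mrpl11, at the base of the stalk, was low and differed between the ventricles in its call. In LV it had 2.03 to 4.49 CPM in WT and 2.29 to 3.12 in cKO (-0.20 ± 0.26, adjusted p = 0.582, edgeR), and in RV 3.84 to 6.38 against 1.77 to 2.02 (-1.37 ± 0.34, adjusted p = 0.00754). The adjusted p of the difference between the ventricles was 0.493 (difference -0.90 ± 0.42 on the log2 scale).

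Of the genes with variants in human cardiomyopathy, Mrpl3 changed by -0.68 ± 0.11 in LV and -0.96 ± 0.16 in RV, Mrpl44 by -0.61 ± 0.16 and -1.16 ± 0.20, and Mrps22 by -0.65 ± 0.13 and -0.96 ± 0.18, all called lower. Mrps14 was called lower in LV (-0.55 ± 0.13), and in RV its change of -0.39 ± 0.19 did not pass (adjusted p = 0.134, edgeR). Mrps12 and Mrps5, which shape the decoding centre, changed by -0.63 ± 0.14 and -0.54 ± 0.10 in LV and by -0.83 ± 0.21 and -0.63 ± 0.16 in RV. Mrps30 and Mrps18a are built into the large subunit in mammals despite their names. They changed by -0.56 ± 0.10 and -0.31 ± 0.11 in LV and by -0.76 ± 0.18 and -0.66 ± 0.20 in RV, all called lower. Mrps18b and Mrps18c, relatives of Mrps18a, did not pass in LV (-0.22 ± 0.16 and -0.18 ± 0.12) and were called lower in RV (-1.05 ± 0.16 and -0.75 ± 0.25). The table lists Mrpl58 under its older symbol Ict1, so it is no member by the rule. It encodes a rescue factor built into the large subunit and changed by -0.55 ± 0.12 in LV and -1.06 ± 0.19 in RV.

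Over both ventricles, 56 members were called lower in each, 15 in RV and not in LV, 2 (Mrps14 and Mrps6) in LV and not in RV, and 3 (Mrpl23, Mrpl27 and Mrpl33) in neither. The 2 members with a value above 0 in LV, named after their values were seen, were Mrpl20 and Mrpl52. Mrpl20, whose bacterial counterpart is needed to assemble the large subunit, had 4.43, 5.39, 5.60, 6.36 and 7.06 CPM in WT LV and 5.91, 5.97, 6.90 and 7.86 in cKO LV, which overlap (0.21 ± 0.18, adjusted p = 0.413, edgeR). In RV it had 6.24, 6.30 and 7.74 CPM against 4.27, 4.63, 5.28 and 5.77 (-0.44 ± 0.16, adjusted p = 0.049), without overlap. Mrpl52 changed by 0.10 ± 0.21 in LV and -0.58 ± 0.19 in RV. Members that held the ETS letters had a median change of -0.55 in LV (25 members) and -0.90 in RV, and those with a window but without the letters -0.62 (42 members) and -0.95. For the NRF1 letters the medians were -0.54 and -0.91 with them (8 members) and -0.63 and -0.94 without (59 members).

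**Figure D2:**
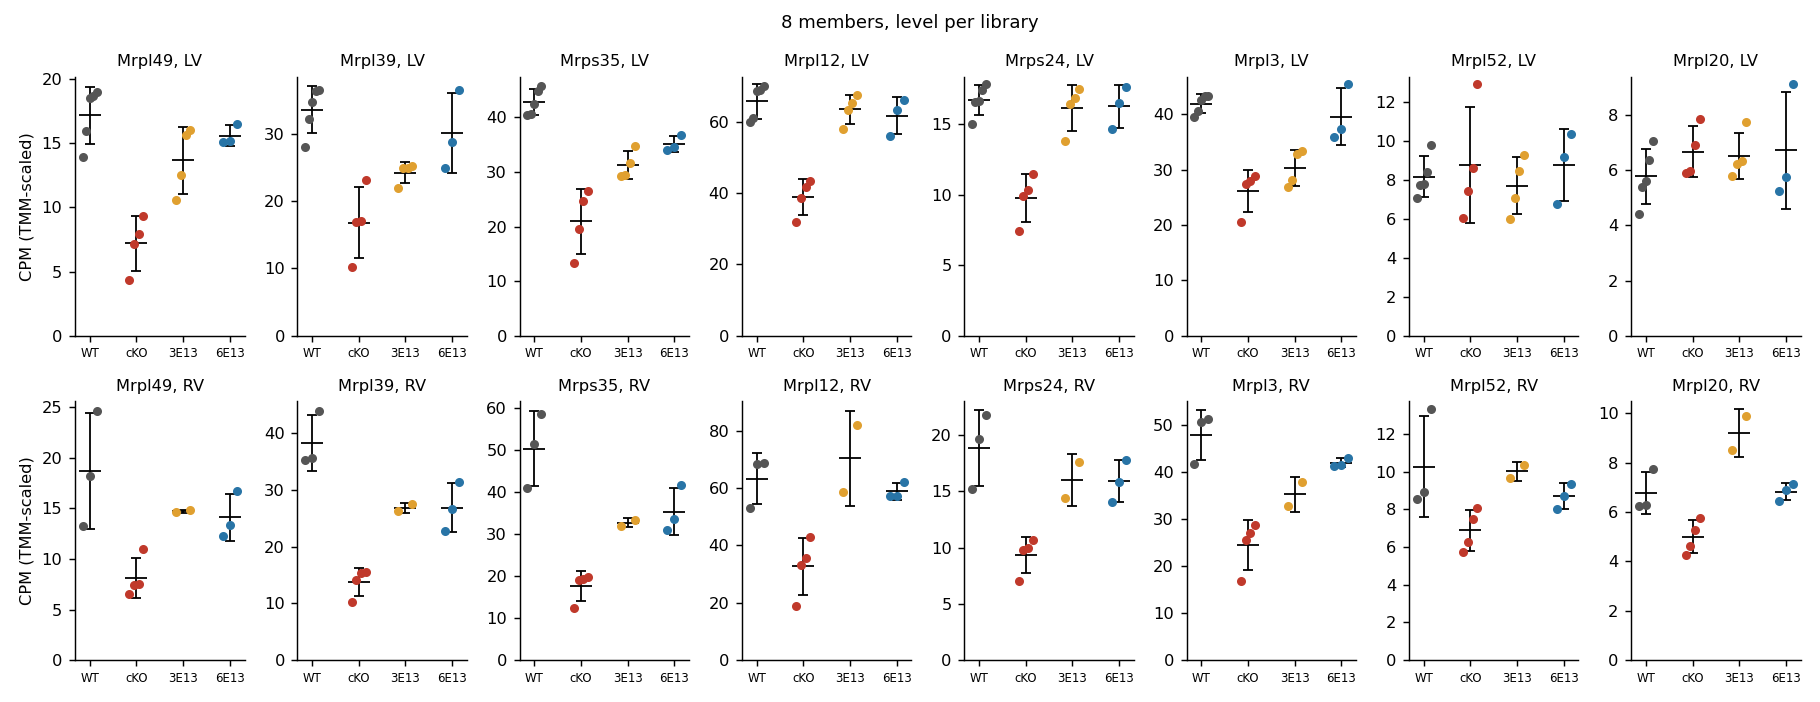
CPM (y axis, from 0) of 8 members in each library of WT, cKO, 3E13 and 6E13 hearts (x axis), LV above and RV below, with the mean and SD in black. The cKO points of Mrpl49, Mrpl39, Mrps35, Mrpl12, Mrps24 and Mrpl3 lie under all WT points in both rows, whereas those of Mrpl20 and Mrpl52 overlap WT in LV.

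The subunits were then compared as sums. In LV the summed level of the large subunit members was 1003, 1019, 1051, 1093 and 1122 CPM in WT and 550, 658, 724 and 750 in cKO, so the cKO mean was 63.4% of WT. The small subunit members summed to 556, 566, 577, 615 and 620 CPM in WT and 330, 383, 430 and 437 in cKO, 67.3% of WT. In RV the large subunit sum was 1015, 1134 and 1338 CPM in WT and 441, 600, 628 and 694 in cKO (50.8%), and the small subunit sum a mean of 650 ± 96.5 (SD, n = 3) against 344 ± 66.9 (n = 4), with at least 561 in WT and at most 412 in cKO (52.9%). WT and cKO did not overlap in any of these sums. The lowest LV cKO library was that of animal 177, and without it 56 members were called lower in LV.

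The ratio of the large to the small subunit sum ran from 1.77 to 1.83 (SD 0.026, n = 5) in WT LV and from 1.67 to 1.72 (SD 0.025, n = 4) in cKO LV, which did not overlap. In RV it was 1.79 ± 0.019 (n = 3) and 1.72 ± 0.042 (n = 4), from 1.78 to 1.81 and from 1.68 to 1.76. Abundant members weigh most in these sums. When each member counted equally, the mean log2 level of large minus small subunit members ran from -0.10 to -0.02 in WT LV and from -0.12 to -0.09 in cKO LV, which overlap, and from -0.06 to -0.04 and -0.14 to -0.04 in RV, which also overlap. The median change of the large subunit lay below that of the small subunit in cKO against WT under all settings tried, by -0.13 to -0.04 in LV (19 settings) and by -0.18 to -0.03 in RV (18 settings). The spread of the members within a subunit was wider than this (SD of the log2 changes 0.29 and 0.23 in LV, 0.27 and 0.28 in RV), and no test was run on the difference. Assigning Mrps30 and Mrps18a to the large subunit and leaving out Mrps36 gave medians of -0.64 and -0.58 in LV.

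**Figure D3:**
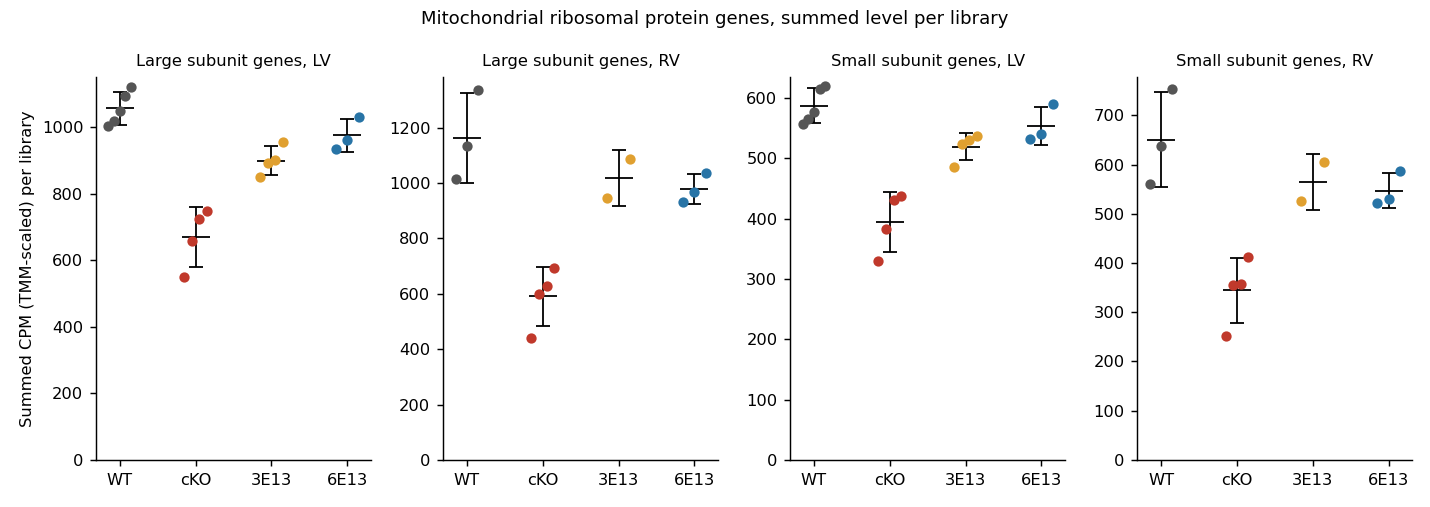
Summed CPM of the large and the small subunit members (y axis, from 0) in each library by group (x axis), with the mean and SD in black. The cKO libraries lie below all WT libraries in each panel, and the 3E13 and 6E13 libraries lie above all cKO libraries (TMM scale).

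The next question was what TN-401 changed in cKO hearts. In LV at 3E13, 20 of 76 members rose against cKO, 12 large and 8 small, and 0 fell, where 5.52% of all genes were called higher and 6.25% lower. The medians were 0.42 for large and 0.40 for small subunit members, and -0.03 over all genes. At 6E13, 46 rose in LV, 29 large and 17 small, and 0 fell (8.65% of genes higher, 8.16% lower), with medians of 0.49 and 0.48. In RV, 40 rose at 3E13, 26 large and 14 small (4.77% of genes higher, 3.83% lower), with medians of 0.80 and 0.69. At 6E13, 52 rose in RV, 33 large and 19 small (11.2% higher, 10.9% lower), with medians of 0.75 and 0.65. At both doses 0 members were called lower in RV by edgeR and by DESeq2, and all 76 had a value above 0. On plain log2(TPM + 1) the members' medians against cKO were -0.01 and 0.06 in LV and 0.11 and 0.13 in RV for 3E13 and 6E13, where all genes had medians of -0.27, -0.29, -0.40 and -0.37. The members' median for 3E13 in LV thus lay on the other side of 0 on that scale.

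Libraries that did not overlap gave a further view. Every 3E13 library lay above every cKO library for 34 members in LV (7.40% of all genes) and for 71 in RV (18.8%), and every 6E13 library did so for 54 in LV (13.4%) and 64 in RV (16.4%). Few RV libraries stand behind this, since 3E13 has 2. The counts of calls turned on single animals. For 3E13 in LV they were 12 and 10 without 3E13 animals 181 and 253 and 32 without cKO animal 180, and for 6E13 in LV 22 without 6E13 animal 645. In RV the 3E13 count was 0 without either 3E13 animal, 181 or 253, and 24 without cKO animal 264, and the 6E13 count was 24 without 6E13 animal 645. With only the groups compared in the fit, 1 member rose at 3E13 and 1 at 6E13 in LV, and 0 at 3E13 in RV.

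**Figure D4:**
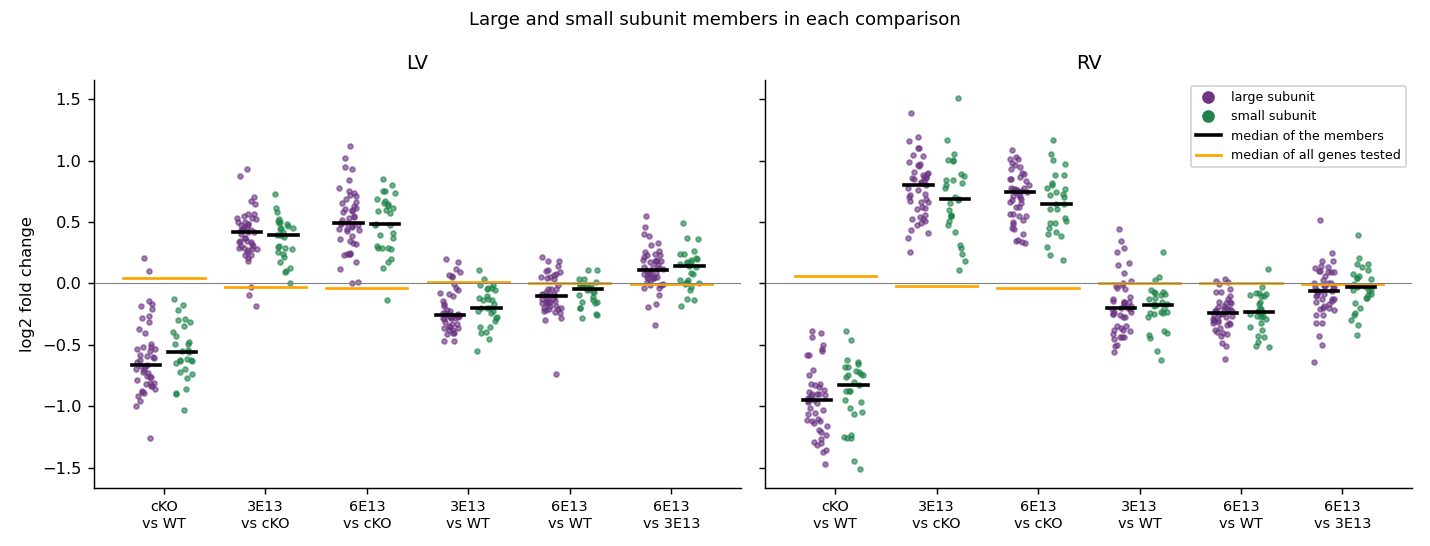
Log2 fold change (y axis) of each large subunit (purple) and small subunit (green) member in 6 comparisons (x axis), LV left and RV right, with black bars for the members' medians and orange bars for the median of all genes tested. In cKO against WT all members other than Mrpl20 and Mrpl52 in LV lie below 0, and they lie above 0 in most treated-against-cKO values on the TMM scale (on plain TPM the LV median of 3E13 against cKO was -0.01), and the purple and green medians lie close together.

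Mrpl12 had the smallest adjusted p of the members at 3E13 in LV. It had 58.0, 63.4, 65.3 and 67.4 CPM there against 32.0 to 43.5 in cKO (0.71 ± 0.10, adjusted p = 0.00133, edgeR). At 6E13 it had 55.9, 63.2 and 66.0 CPM (0.66 ± 0.11), again above every cKO library. Mrpl34 had 20.6 to 25.1 CPM at 3E13 and 18.3, 24.7 and 28.5 at 6E13 against 9.94, 12.9, 12.9 and 13.6 in cKO (0.87 ± 0.13 and 0.95 ± 0.14). None of the treated libraries overlapped cKO. Mrpl45 rose by 0.65 ± 0.12 and 0.78 ± 0.13.

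In the small subunit, Mrps2 had 26.3, 27.4, 27.8 and 33.1 CPM at 3E13 and 25.4, 25.6 and 27.1 at 6E13 against 18.2, 18.7, 18.7 and 19.3 in cKO (0.61 ± 0.09 and 0.47 ± 0.10). Mrps24 had 13.8, 16.4, 16.9 and 17.5 CPM at 3E13 and 14.6, 16.5 and 17.6 at 6E13 against 7.45, 9.91, 10.3 and 11.4 in cKO (0.72 ± 0.13 and 0.73 ± 0.14). Both genes were apart from cKO at both doses. Mrps5 rose by 0.50 ± 0.11 at 3E13, and Mrps25 by 0.59 ± 0.11 at 6E13.

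In RV, Mrpl18 had 33.3 and 41.8 CPM at 3E13 and 33.8, 35.9 and 36.3 at 6E13 against 12.6 to 22.4 in cKO (1.10 ± 0.18 and 1.01 ± 0.16, adjusted p = 0.012 and 0.0017, edgeR). Its treated and cKO libraries did not overlap. Mrpl19 and Mrpl38 rose by 0.89 ± 0.14 and 0.97 ± 0.18 at 3E13, and Mrpl35 and Mrpl39 by 0.90 ± 0.15 and 0.96 ± 0.16 at 6E13. Mrps16 had the largest rise of the members at 3E13, with 6.19 and 7.10 CPM against 2.01, 2.04, 2.29 and 3.02 in cKO (1.51 ± 0.27). Mrps31 rose by 1.17 ± 0.23 at 3E13 and 1.05 ± 0.21 at 6E13, and Mrps33 by 1.00 ± 0.20 at 3E13. At 6E13 Mrps35 had 31.0, 33.5 and 41.6 CPM (1.00 ± 0.18), above all cKO libraries and with 1 of 3 within the WT range. Mrps18b rose by 0.88 ± 0.16.

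Treated hearts were also set against WT, a comparison that shares its WT libraries with the one above. In LV, 1 of 76 members was called between 3E13 and WT (2.50% of all genes called in either direction), and that was Mrpl3. It had 26.8, 28.1, 32.8 and 33.3 CPM at 3E13 against 39.5, 40.5, 42.6, 43.2 and 43.3 in WT (-0.47 ± 0.11, adjusted p = 0.0367, edgeR), without overlap. This call was lost, leaving 0, without 3E13 animal 181, 182 or 252 and without any one of the WT animals, 248, 626, 636, 637 and 647. The count was higher under some settings. With only these groups in the fit 13 members were called, all lower, and DESeq2 called 3, while 0 were called with length offsets and on both TPM scales. The 3E13 medians against WT were -0.26 for large and -0.20 for small subunit members, and 26 members had an unadjusted p under 0.05. The 3E13 sums were 85.1% (large) and 88.4% (small) of WT.

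At 6E13 in LV, 0 of 76 differed from WT by edgeR and by DESeq2 (0.0853% of all genes called), 0 had an unadjusted p under 0.05, and the medians were -0.11 and -0.05. The small subunit median ran from -0.14 without 6E13 animal 645 to -0.002 without 631, and was -0.08 and -0.03 without WT animals 626 and 637. The sums were 92.3% and 94.3% of WT. Mrpl2 had the smallest adjusted p (-0.28 ± 0.14, adjusted p = 0.819, edgeR). In RV, 0 of 76 differed between 3E13 and WT by edgeR (7.38% of all genes called), with 8 at an unadjusted p under 0.05 and 1 called by DESeq2, and 0 between 6E13 and WT by both tools (0.872% called), with 5 at an unadjusted p under 0.05. Mrps35 came nearest at 3E13 (-0.62 ± 0.22, adjusted p = 0.117) and Mrpl39 at 6E13 (-0.51 ± 0.17, adjusted p = 0.239, edgeR). The RV medians against WT were -0.20 and -0.17 at 3E13 and -0.24 and -0.23 at 6E13, with 64 and 72 of 76 members below 0. They rested on few animals. Without WT animal 647, whose RV members summed to 2090 CPM against 1576 and 1772 in the other WT RV pieces, they were -0.07 and -0.04 at 3E13 and -0.12 and -0.11 at 6E13. For 3E13 they were -0.13 and -0.08 without 3E13 animal 253 and -0.29 and -0.31 without 181, and the small subunit median was -0.27 without WT animal 636. On plain log2(TPM + 1) the members' medians against WT were -0.07 and 0.03 in LV and 0.05 and 0.04 in RV for 3E13 and 6E13, so the LV direction at 6E13 and both RV directions turned on that scale. A value that did not pass does not show that treated and WT hearts were equal.

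Between the doses, 0 of 76 members were called in LV (0.0122% of all genes) or in RV (0.0404%) by edgeR and by DESeq2, with 5 and 2 at an unadjusted p under 0.05. The medians of 6E13 against 3E13 were 0.11 and 0.14 in LV and -0.06 and -0.03 in RV, where the members' median on plain log2(TPM + 1) was 0.08 and 0.02. In RV the medians turned to 0.03 and 0.09 without 3E13 animal 181, and were -0.15 and -0.15 without 253, -0.10 and -0.10 without 6E13 animal 645, -0.01 and -0.01 without 250, and -0.06 and -0.004 without 631. In LV they were 0.06 and 0.10 without 6E13 animal 645 and 0.07 and 0.07 without 3E13 animal 252. Mrpl3 had the smallest adjusted p in LV (0.38 ± 0.12, adjusted p = 0.729) and Mrpl40 in RV (-0.50 ± 0.18, adjusted p = 0.461, edgeR).

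The ventricles of the same animals were compared with the animal as a block. In WT, 0 of 76 members differed between RV and LV by edgeR or limma-voom (0.00556% of all 17981 genes called), 3 had an unadjusted p under 0.05, and the medians were -0.01 for both subunits. These medians turned on single animals, with -0.19 and -0.17 without WT animal 647, 0.09 and 0.08 without 636, and 0.04 and -0.01 without 637. Mrps16 had the smallest adjusted p (-0.61 ± 0.20, adjusted p = 0.421, edgeR). The change of cKO against WT was more negative in RV than in LV for 72 of 76 members, with median differences of -0.33 and -0.29 and -0.02 over all genes. Without WT animal 647 these medians were -0.15 and -0.12, so much of their size rested on that animal. Of these differences 0 passed by edgeR or limma-voom (0.0111% of all genes called), and 20 had an unadjusted p under 0.05. Mrpl50 came nearest (-0.45 ± 0.13, adjusted p = 0.241, edgeR).

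Related genes were followed as lists, on the TMM scale. The 5 proteins of the mitochondrial ribosome with other names, among them Dap3 and Ptcd3 of the small subunit, were all called lower in cKO in both ventricles, with medians of -0.63 and -0.93. Ptcd3 fell most in LV (-1.05 ± 0.16). Of 26 tested genes for assembly of the ribosome, 18 fell in LV and 20 in RV, and 0 rose. Examples are Mtg2, a GTPase of the large subunit (-0.97 ± 0.13 in LV), and Fastkd2, an RNA-binding protein (-1.23 ± 0.16 in RV). Of 15 translation factors, 11 fell in LV and 14 in RV, led by the initiation factor Mtif2 (-1.04 ± 0.13) and Taco1, which serves translation of a complex IV subunit (-1.05 ± 0.15), in LV. Of 17 mitochondrial aminoacyl-tRNA synthetases, 12 and 14 fell, with Vars2 at -0.96 ± 0.10 and Aars2 at -1.04 ± 0.14 in LV. Of 9 genes for mitochondrial transcription and mtDNA, 7 fell in each ventricle, with the helicase Twnk, listed as Peo1, at -1.40 ± 0.17 in LV.

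The products and partners of this machinery were measured in the same fits. Of 75 nuclear respiratory chain and ATP synthase genes tested in LV, 71 fell (median -0.78), and of 74 in RV, 72 fell and 1, Ndufa4l2, rose (0.79 ± 0.17), with a median of -1.27. Ndufa4l2 is a hypoxia-inducible relative of a complex IV subunit. Of the 15 genes of the mitochondrial genome, 10 fell in LV (median -0.98) and 14 in RV (median -1.59). Over all genes, 19.7% were called higher and 16.1% lower in LV, and 19.8% and 17.6% in RV. The cytosolic ribosomal proteins, which build the other ribosome of the cell, had 21 of 81 called higher and 1 lower in LV (median 0.28) and 3 higher and 3 lower in RV (median 0.07). The gene called lower in LV was Rpl3l, the muscle form of Rpl3 (-1.66 ± 0.35), and in RV Rpl3l (-2.64 ± 0.35), Rpsa and Rps2 fell whereas Rpl3 (1.02 ± 0.16), Rps24 and Rps16 rose, all named after their values were seen. Among 11 regulators, 5 fell and 1 rose in each ventricle. The coactivator Ppargc1b changed by -1.06 ± 0.13 in LV and -0.89 ± 0.18 in RV, Esrra by -0.77 ± 0.12 and -0.77 ± 0.19, and Gabpa by -0.32 ± 0.08 and -0.59 ± 0.11. Nrf1, whose letters were searched in the promoters, did not pass (0.14 ± 0.11 and 0.26 ± 0.12), and Myc was the 1 that rose (2.48 ± 0.41 and 2.49 ± 0.45). At 6E13 against cKO, 10 of the 26 assembly genes, 9 of the 15 translation factors and 9 of the 17 synthetases rose in LV, and 10, 9 and 11 did in RV.

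Markers of cell types moved in the same comparisons. Of the 10 cardiomyocyte markers, 6 fell in LV (median -0.76) and 8 in RV (median -1.08), against member medians of -0.62 and -0.92. Of 8 fibroblast markers 6 and 8 rose (medians 1.16 and 1.66), and of 8 macrophage and monocyte markers 7 and 7 rose (2.16 and 2.13). The fibroblast sum ran from 969 to 1239 CPM in WT LV and from 3101 to 5406 in cKO LV, and from 1188 to 1475 and 5351 to 11559 in RV. The macrophage sum ran from 112 to 144 and 231 to 1058 CPM in LV, and from 148 to 190 in WT RV, with at least 407 in each cKO RV library. Endothelial markers had 3 of 6 higher and 1 lower in LV and 2 and 1 in RV, smooth muscle and pericyte markers 1 and 2 of 4 higher, and T, NK and B cell markers 3 and 4 of 7 higher, with a sum of at most 10.2 CPM in any cKO library. Of 4 atrial markers, Myl7 and Sln stayed under 1 CPM in WT and cKO LV, and in RV all 4 rose, with a sum of 29.9 to 340 CPM in cKO against 16.1 to 19.3 in WT. The adipocyte genes Adipoq, Plin1 and Cidec were under 1 CPM in all WT and cKO LV libraries and in all WT RV libraries. In cKO RV only Plin1 stayed under it in every library. With Fabp4, the 4 adipocyte markers summed to 146 to 212 CPM in WT LV and 112 to 312 in cKO LV. In RV their sum ran from 194 to 229 in WT and from 112 to 394 in cKO. Of 3 red blood cell genes, 2 were higher in cKO LV. The markers moved in treated against cKO as well. The median change of the cardiomyocyte markers was 0.53 at 3E13 and 0.59 at 6E13 in LV (3 and 4 of 10 called higher) and 0.60 and 0.95 in RV (3 and 6 higher), and 0 were called lower. The fibroblast markers had medians of -0.66 and -0.80 in LV (3 and 3 of 8 called lower) and -0.45 and -1.28 in RV (2 and 7 lower), and the macrophage and monocyte markers -0.95 and -1.10 in LV (3 and 4 of 8 lower) and -0.40 and -0.94 in RV (1 and 5 lower). At 3E13 the RV cardiomyocyte sum was 78830 to 80176 CPM, below WT, and the fibroblast sum 3450 to 3892. In the same 2 pieces the T, NK and B cell sum was 14.9 and 24.5 CPM, above every cKO piece, with 3 of 7 markers (Cd8a, Cd3e and Nkg7) called higher than in cKO. At 6E13 in RV that sum was 7.55 to 8.77 CPM and 0 of 7 were called. The part of these shifts in the members' values was not tested.

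**Figure D5:**
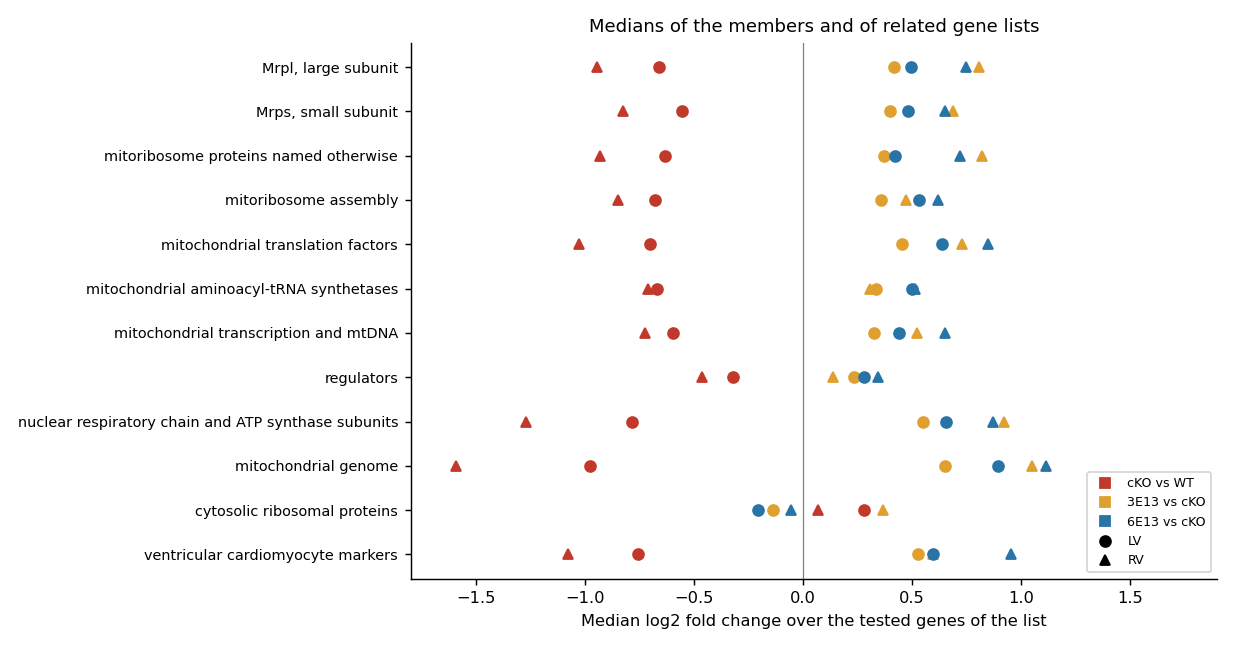
Median log2 fold change (x axis, TMM scale) over the tested genes of each list (y axis) for cKO against WT (red), 3E13 against cKO (yellow) and 6E13 against cKO (blue), in LV (circles) and RV (triangles). The large and small subunit medians of cKO against WT lie at -0.66 and -0.56 in LV, beside -0.78 for the nuclear respiratory chain, -0.76 for the cardiomyocyte markers and 0.28 for the cytosolic ribosomal proteins.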

How the data were processed

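RNA of left and right ventricle pieces was sequenced as paired reads from 28 libraries. Per the labels, the RNA was taken by a protocol for polyadenylated RNA and the libraries were made with a stranded kit that removes ribosomal RNA, 2 selections that the labels do not reconcile, and the authors quantified transcripts with Salmon 1.8.0 on GRCm39. The deposited table holds expected counts per gene symbol, which were rounded to whole numbers, beside TPM and effective lengths that the authors also deposited. The listed TPM add up to 77.9% to 91.4% of the full TPM total. A row without a gene name took at most 0.000971% of counts and was left out. All 84 columns were mapped to samples by name, so 0 columns were unused. Libraries held 19364764 to 39381176 counts, and a count of 0 allows up to 3 counts. That floor covers counting error only, whereas the SDs and SEs also hold the spread between animals.

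Within each ventricle all 4 groups entered 1 fit in R 4.3.3 (edgeR 4.0.16, TMM scaling, filterByExpr, quasi-likelihood test), two-sided, with Benjamini-Hochberg adjustment over all genes tested and a threshold of 0.05. SEs were computed from the fitted log2 fold change and its test statistic. Ventricles were compared with the animal as a block, because both pieces of 12 animals carry the same animal number in the labels. The alternatives were DESeq2 1.42.0, RLE size factors, no filter, limma 3.58.1 on log2(TPM + 1), offsets from effective lengths, the mitochondrial genome left out, only the groups compared, sex as a covariate, and each animal left out. Rescaled TPM and leaving out the pieces with most Myl7 were added after seeing the data. The fit was also run on simulated counts with the same spread for every gene and equal numbers of planted rises and falls. That setting is simpler than these data, so it does not show how far the calls hold. No copied library was found (38 pairs within groups, lowest chi-squared per degree of freedom 17.9).

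Members and lists were chosen with earlier results of these data known. Named members were, for cKO against WT, the 5 per subunit with the largest change among called members with at least 5 CPM. For treated against cKO they were the 3 called members per subunit with the smallest adjusted p, and for other comparisons the called members or, where none was called, the one with the smallest adjusted p. Members with a known role and the 3 highest and 3 lowest by TPM were added whatever their change. From the other lists, up to 3 called genes with the smallest adjusted p were eligible. The rule also covered Mrpl58, which the table lists as Ict1. Promoter windows are those of RefSeq on GRCm38.p6, whereas gene positions are on GRCm39.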

Additional observations from a re-analysis of the deposited data

Results flagged for a closer look

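In groups of 4 or 5 libraries, a library was singled out where its gap to the nearest other exceeded Dixon's limit. Of 172 groups of values, most of them of the 40 named members, 7 did so, where chance gives about 1 in 20. In WT LV the highest Mrpl34 value was 24.7 CPM, next to 22.7. Mrpl42 was singled out at the top in WT LV (0.991 CPM, next 0.152), in cKO LV (0.131, the others at 0) and in 3E13 LV (0.473, the others at 0). Most Mrpl42 values lie at or near 0 counts, where the limit means little. In 3E13 LV the lowest Mrpl19 value was 15.3 CPM, next to 18.8, and the lowest Mrpl39 value 21.9 CPM, next to 24.9. In cKO RV the lowest Mrps35 value was 12.3 CPM, next to 19.0.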

How the results depend on the processing

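Counts of members called lower in cKO than in WT (58 in LV, 71 in RV) stayed within 1.5 times under all alternatives other than TPM, where 12 and 15 passed in either direction on plain TPM and 22 and 33 with the mitochondrial genome left out. Leaving out 1 animal gave 53 to 59 and 57 to 71. Counts against cKO moved more. For 3E13 in LV (20) they were 3 on plain TPM, 6 on rescaled TPM, 31 by DESeq2, 13 with length offsets, 1 with only the groups compared and 10 to 32 with 1 animal left out. For 3E13 in RV (40) they were 6, 12 and, with only the groups compared, 0, and 0 to 45 with 1 animal left out. For 6E13 they were 4 and 10 in LV (46), 1 with only the groups compared, and 7 and 18 in RV (52), with 22 to 47 and 24 to 57 when 1 animal was left out. For 3E13 against WT in LV (1) they were 0 on both TPM scales and with length offsets, 3 by DESeq2, 13 with only the groups compared and 0 to 1 with 1 animal left out. In RV (0) DESeq2 and plain TPM each gave 1. The other comparisons gave 0 to 0 with 1 animal left out. Fewer libraries enter the fits with only the groups compared. Counts there fell to 1, 1 and 0 against cKO and rose from 1 to 13 for 3E13 against WT in LV. The cause of these and the other shifts was not tested. With no replicate block the ventricle comparisons gave 0 and 0, as in the fits with the animal as a block. Single members were followed only where named and called in cKO against WT or treated against cKO, so they were picked by their main result. Over all settings, 714 of their results kept direction and side of the threshold, 60 no longer passed and 0 reversed. The losses were uneven. On plain TPM 24 no longer passed and 20 did, on rescaled TPM 8 and 36, and with only the groups compared 16 and 28. Without 3E13 animal 181 or 253, 6 each no longer passed. Depth limits Mrpl42 in particular, at 0 counts in most libraries.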
